A study of Mus musculus with 24 samples.

Results

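Carbonic anhydrases interconvert carbon dioxide and bicarbonate with a proton, and so set the supply of bicarbonate and acid on which many epithelial transporters work. The family holds cytosolic enzymes (Car1, Car2, Car7, Car13), a mitochondrial enzyme (Car5b), enzymes whose catalytic domain faces the outside of the cell (Car4, held by a lipid anchor, and Car9 and Car12, which span the membrane), and related proteins without enzyme activity such as Car8. In the gut, carbonic anhydrases are known for acid-base handling at the brush border and for supplying ions to bicarbonate secretion and salt uptake, and Car9 is widely used as a target gene of the hypoxia-inducible factor HIF.

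These 9 genes were chosen by name from the 43280 symbols of the deposited count table, with no threshold. Their counts in these same libraries, the fall of Car4 after NRG1 among them, were known when the names were put together, so the values and whole-table tests below describe the genes and are no independent support for any pattern. Another 9 symbols of the family were looked at beside them. Of the 9 named genes, 7 passed the filter on low counts over all libraries, and Car1 and Car7 did not.

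RNA was sequenced from cells of small-intestinal crypts of 6 male C57BL/6 mice that carry the Lgr5-EGFP reporter, which marks cells expressing the stem cell gene Lgr5. The treated mice (n = 3) received 7.5 µg of NRG1 (neuregulin 1, the ligand of the receptors ErbB3 and ErbB4) into the peritoneum every 12 h for 5 days, the control mice (n = 3) received the vehicle PBS, and cells were collected on day 6. Both treatments had mice aged 15 weeks as replicates 1 and 2 and a mouse aged 11 weeks as replicate 3. Each mouse gave 4 populations, sorted by EGFP and CD24 after removal of dead cells and of CD45+ and CD31+ cells: Lgr5high, which the labels call crypt base columnar stem cells, Lgr5med and Lgr5low, called immediate and subsequent progenitors, and Lgr5neg, called differentiated. That gave 24 libraries in 8 groups of 3. All mice carried the reporter, and villi had been scraped off before crypts were isolated, so Lgr5neg cells are those left in the crypt preparation.

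Total counts lay between 11176264 and 23343499 per library, of which the mitochondrial ribosomal RNAs took 49.5% to 62.4% in Lgr5neg and 37.6% to 47.1% in the other libraries. Their ratio went with treatment: mt-Rnr1 had 38.0 to 54.2 counts per 100 of mt-Rnr2 in NRG1 libraries, against 18.1 to 32.1 in 11 of the 12 PBS libraries and 42.9 in the other, Lgr5high replicate 3. Its part in the results under NRG1 was not tested. The calls of Car4 in Lgr5med and Lgr5high cells and of Car9 in Lgr5high cells held when both RNAs were left out. That step removes only their own counts and cannot test what the ratio goes with. Stem cell markers followed the gates: 14 stem cell markers summed to 4520 to 5026 CPM in NRG1 and 4219 to 5905 CPM in PBS Lgr5high libraries, against 85.8 to 113 CPM in NRG1 and 118 to 137 CPM in PBS Lgr5neg libraries. CPM is the count relative to the library total, scaled with the TMM method over all 24 libraries. Within each mouse Lgr5low cells also held the highest sum of 11 goblet cell markers, 15023 to 27432 CPM in NRG1 and 14761 to 27089 CPM in PBS libraries, where Lgr5med cells had 4804 to 11280 CPM in NRG1 and 5838 to 16553 CPM in PBS libraries. Lgr5low cells had 3796 to 7358 CPM in NRG1 and 6406 to 9589 CPM in PBS libraries of 25 enterocyte markers. In such bulk samples fewer cells of a type and less RNA per cell cannot be told apart. Although CD45+ cells had been gated out, 12 immune markers summed to 56.4 to 449 CPM in NRG1 and 91.4 to 197 CPM in PBS Lgr5neg libraries, against 1.36 to 5.30 CPM in all others, and their part in the Lgr5neg results was not tested.

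On GRCm38 in the GENCODE annotation, Car4 lies on chromosome 11 (84957786 to 84966044, plus strand), Car9 on chromosome 4 (43506966 to 43513729, plus strand) and Car12 on chromosome 9 (66713686 to 66766845, plus strand). Car8 is on chromosome 4 (8143362 to 8239041, minus strand), Car5b on chromosome X and Car7 on chromosome 8. Car13 (14641727 to 14663002, plus strand), Car1 (14766216 to 14808368, minus strand) and Car2 (14886273 to 14900770, plus strand) lie close together on chromosome 3, with Car3 between Car1 and Car2.

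The promoters of Car9 and Car4 are shown because these were the only members called after NRG1 in any population, and they were called in opposite directions. Both windows are from RefSeq on GRCm38.p6, run from 250 bases before to 50 after the annotated start, and lie on the plus strand. That of Car9 is chr4:43506776-43507075 and that of Car4 is chr11:84957504-84957803. Capitals mark the letters CACGT, the reverse complement of ACGTG, the only form of the core bound by HIF that was searched.
Car9: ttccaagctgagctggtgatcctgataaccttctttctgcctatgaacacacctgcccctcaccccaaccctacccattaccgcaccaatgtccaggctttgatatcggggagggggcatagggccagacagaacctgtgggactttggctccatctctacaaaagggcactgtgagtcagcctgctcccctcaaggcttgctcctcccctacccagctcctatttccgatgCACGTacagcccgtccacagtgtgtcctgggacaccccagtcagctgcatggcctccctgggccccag
Car4: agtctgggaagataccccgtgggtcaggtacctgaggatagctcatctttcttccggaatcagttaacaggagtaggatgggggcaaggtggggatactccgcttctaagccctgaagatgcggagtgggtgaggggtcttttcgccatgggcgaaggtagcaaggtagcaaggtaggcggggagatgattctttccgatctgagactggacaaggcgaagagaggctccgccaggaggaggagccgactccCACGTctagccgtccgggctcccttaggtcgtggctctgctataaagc
The match begins 18 bases before the RefSeq start of Car9 and 3 bases after the RefSeq start of Car4. GENCODE has other gene starts (43506966 for Car9 and 84957786 for Car4). Against those, the Car9 match lies after the start and the Car4 match before it. Both strands were searched, and 6447 of 32851 promoter windows of the same length (19.6%) hold these letters, so their presence in either window is a description only. Neither window holds CCATAAA (the letters searched for CDX factors, in 2.75% of windows) or CAAAGTCCA (for HNF4, in 0.475%). The motifs were picked after results were known. RefSeq windows were at hand for 5 of the 9 genes.

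Of the members tested, Car4 had the largest log2 change under NRG1 in Lgr5high, Lgr5med and Lgr5low cells, and the largest difference between Lgr5neg and Lgr5high cells. It encodes the lipid-anchored enzyme of the outer cell surface, found on the brush border. In Lgr5high cells it stood at 0.602, 1.96 and 0.693 CPM in the NRG1 libraries (replicates 1 to 3), against 2.92, 4.62 and 2.33 CPM in the PBS libraries. In Lgr5med cells it stood at 3.96, 2.98 and 2.11 CPM in NRG1 libraries, against 13.2, 17.5 and 19.7 CPM in PBS libraries. The treatments did not overlap in either population (as for 27% of the tested genes in Lgr5high and 30.6% in Lgr5med cells), and the lowest PBS library of Lgr5med was more than 3 times the highest NRG1 library. In Lgr5low cells Car4 had 23.5, 9.35 and 8.35 CPM in NRG1 libraries, against 48.7, 37.0 and 29.5 CPM in PBS libraries. In Lgr5neg cells it had 96.4, 91.3 and 86.6 CPM in NRG1 libraries, against 107, 134 and 104 CPM in PBS libraries. Here too every NRG1 library lay below every PBS library, but by a smaller factor (15.9% of the tested genes did not overlap in Lgr5neg and 18.5% in Lgr5low cells).

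Under NRG1 Car4 fell in Lgr5med cells by 2.45 on the log2 scale (SE 0.237, adjusted p = 7.05e-05), and in Lgr5high cells by 1.55 (SE 0.441, adjusted p = 0.0472). These p-values are from edgeR's quasi-likelihood test, adjusted after Benjamini-Hochberg over all genes tested, with a call at an adjusted p under 0.05. In Lgr5med cells 9.55% of 13394 genes were called, and 7.33% of 13322 genes in Lgr5high cells. Of the members tested, 1 of 6 was called in Lgr5med and 2 of 7 in Lgr5high cells, and none of 6 in Lgr5low or Lgr5neg cells, where 3 and 1 had an unadjusted p under 0.05 and DESeq2 called 0 and 1. In Lgr5low cells the log2 change of Car4 was -1.46 (SE 0.416, adjusted p = 0.224), where 0.443% of 13326 genes were called. Blocking on the replicate number gave -1.57 (adjusted p = 0.000304), and 573 in place of 59 genes were called. Leaving out the Lgr5low NRG1 library of replicate 1, the highest of its group, gave -2.09 (adjusted p = 0.00594). In Lgr5neg cells the change was -0.34 (SE 0.160, adjusted p = 0.480), where 0.328% of 11908 genes were called.

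The call in Lgr5med cells held in all 13 alternatives run for it, with log2 changes from -2.69 to -2.14. The call in Lgr5high cells, at counts of 14 or more per library, ended without the NRG1 library of replicate 1 (adjusted p = 0.134) or 3 (0.141) and without the PBS library of replicate 1 (0.0721) or 2 (0.191). It also ended in the model of all 24 libraries (0.0844) and in 15-week-old mice (0.116), over a range of 0.000419 to 0.191 in the 13 alternatives.

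**Figure D1:**
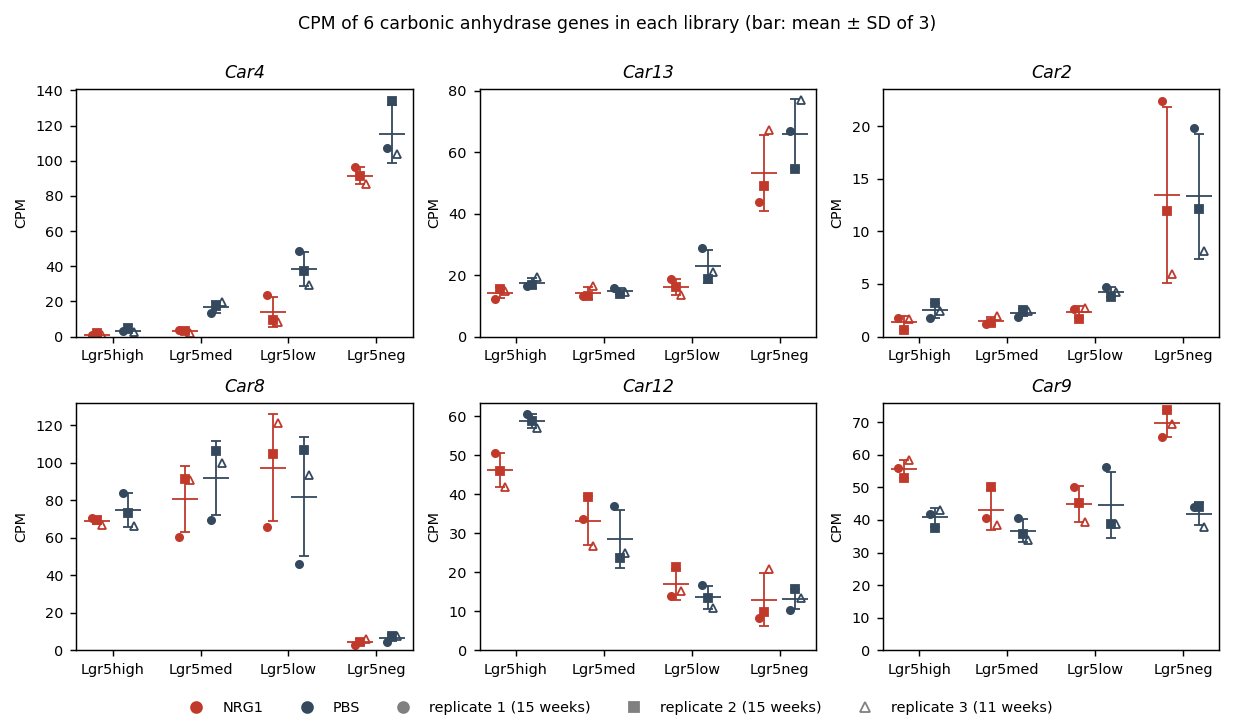
CPM (y axis) of 6 carbonic anhydrase genes in each library, by population (x axis), with NRG1 libraries in red left of PBS libraries in dark blue; bars give the mean and SD of 3 libraries and open triangles are the 11-week-old mice. Car4 lies lower in NRG1 than in PBS libraries of all 4 populations, Car8 is near 0 in Lgr5neg cells only, and Car9 is higher in NRG1 than in PBS libraries of Lgr5high and Lgr5neg cells.

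Whether the Car4 response differed between populations was tested over all 24 libraries. The response of Lgr5med minus that of Lgr5neg cells was -2.13 (SE 0.525, unadjusted p = 0.000744 and adjusted p = 0.243), and 0.0465% of 15045 genes were called. The share of genes called was 0.0532% for Lgr5high minus Lgr5neg, 0.0199% for Lgr5low minus Lgr5neg and 0.0266% for any difference among the 4 populations. The difference for Car4 was -1.22 for Lgr5high minus Lgr5neg cells (SE 0.590, adjusted p = 0.584) and -1.13 for Lgr5low minus Lgr5neg cells (SE 0.499, adjusted p = 0.820). No member passed any of these tests in edgeR as reported or in DESeq2. Of the members, 2 had an unadjusted p under 0.05 for Lgr5med and 2 for Lgr5low minus Lgr5neg (Car4 and Car9 each time), and none had for Lgr5high. The fit without a filter on low counts called Car4 in all of them (adjusted p = 1.61e-12 for Lgr5med minus Lgr5neg, over a range of 1.61e-12 to 0.883 in the alternatives). That fit also called more genes in general: 134 in place of 7 for Lgr5med and 150 in place of 8 for Lgr5high minus Lgr5neg. For Lgr5low minus Lgr5neg it called 94 in place of 3, and for any difference 227 in place of 4.

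Enterocyte markers were read beside Car4. Of 25 enterocyte markers tested in Lgr5med cells, 6 were called lower under NRG1 and none higher. Their log2 changes ran from -1.55 (Fabp1) to 0.59 (Slc15a1), with a median of -0.46 against 0.01 over all genes. Fabp1, a fatty acid binding protein, fell by 1.55 (SE 0.156, adjusted p = 8.93e-05). The intestinal alkaline phosphatase gene Alpi fell by 1.23 (adjusted p = 0.0171) and Fabp2, another fatty acid binding protein, by 1.04 (adjusted p = 0.0225). Mttp, which loads lipid onto lipoproteins, fell by 0.70 (adjusted p = 0.00796). The log2 change of Car4 lay below those of all 25 in Lgr5high, Lgr5med and Lgr5low cells, whereas 10 of 25 lay below it in Lgr5neg cells. No enterocyte marker was called in the other 3 populations, and the medians there were -0.27 in Lgr5high, -0.56 in Lgr5low and -0.21 in Lgr5neg cells.

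Summed markers of cell types were also compared between treatments. Sums of stem cell markers in Lgr5low and Lgr5neg cells and of Paneth cell markers in Lgr5high cells did not overlap. Enterocyte marker sums in Lgr5med cells did not either, at 1635 to 2318 CPM in NRG1 and 2811 to 3345 CPM in PBS libraries. The same held for goblet marker sums in Lgr5neg cells, at 1214 to 3741 CPM in NRG1 and 4764 to 6649 CPM in PBS libraries. The other sums given in this paragraph overlapped. The 14 stem cell markers summed to 1202 to 1776 CPM in NRG1 and 856 to 905 CPM in PBS Lgr5low libraries, with a median log2 change of 0.48, and to 2709 to 3263 CPM in NRG1 and 1642 to 2793 CPM in PBS Lgr5med libraries, with a median of 0.36. In each of these gates 1 of the 14 was called, Olfm4 in Lgr5low (1.16, adjusted p = 0.0369) and Rgmb in Lgr5med cells (0.82, adjusted p = 0.0420), both higher under NRG1. Of all genes, 0.443% were called in Lgr5low, 9.55% in Lgr5med, 7.33% in Lgr5high and 0.328% in Lgr5neg cells. In Lgr5high cells the median of the 14 was 0.02 with none called. In Lgr5neg cells the 14 summed to 85.8 to 113 CPM in NRG1 and 118 to 137 CPM in PBS libraries. Their median there was -0.05, and 1 of 11 tested was called, Axin2, which was lower under NRG1 (-1.40, adjusted p = 0.00988). Axin2 alone held a mean of 15.6 CPM of the Lgr5neg sum in NRG1 and 41.1 CPM in PBS libraries. Sums of 10 Paneth cell markers in Lgr5high cells were 1299 to 2081 CPM in NRG1 and 2165 to 3816 CPM in PBS libraries, with a median of -0.69 and 3 of 9 tested called lower. In Lgr5med cells the Paneth sums overlapped, at 1128 to 3347 CPM in NRG1 and 1192 to 3536 CPM in PBS libraries. Sums of 13 enteroendocrine markers were 18.4 to 40.0 CPM in NRG1 and 27.6 to 156 CPM in PBS Lgr5high libraries (median -1.73, 1 of 7 tested called lower), and 108 to 346 CPM in NRG1 and 241 to 610 CPM in PBS Lgr5med libraries (median -0.73, none of 11 called). The medians of 11 goblet cell markers were -0.52 in Lgr5high, -0.65 in Lgr5med and -0.07 in Lgr5low cells, with none called. The part of these differences in the Car4 and Car9 results was not tested.

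Car4 also followed the order of the gates. In NRG1 mice the step of Lgr5med over Lgr5high was 1.46 (SE 0.549, adjusted p = 0.226), that of Lgr5low over Lgr5med was 2.20 (SE 0.468, adjusted p = 0.0268) and that of Lgr5neg over Lgr5low was 2.80 (SE 0.438, adjusted p = 0.000281). The call of the middle step in NRG1 mice ended without any of the Lgr5med NRG1 libraries (adjusted p = 0.0803 without replicate 1, 0.105 without 2 and 0.0849 without 3). In PBS mice Car4 was higher in Lgr5med than in Lgr5high cells by 2.34 on the log2 scale (SE 0.243, adjusted p = 3.50e-05), and higher in Lgr5low than in Lgr5med cells by 1.19 (SE 0.217, adjusted p = 0.00268). The second of these calls ended in the model of all 24 libraries (0.0521). Car4 was higher again in Lgr5neg than in Lgr5low cells by 1.66 (SE 0.215, adjusted p = 4.19e-06).

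In NRG1 mice 3.11% of 14307 genes were called between Lgr5med and Lgr5high cells, 4.72% between Lgr5low and Lgr5med, 57% between Lgr5neg and Lgr5low, and 65.5% between Lgr5neg and Lgr5high cells. In PBS mice the shares of 14203 genes were 9.16%, 7.59%, 55.8% and 67.4% in the same order. Of the 7 members tested, none was called for Lgr5med over Lgr5high in NRG1 mice and 2 in PBS mice. For Lgr5low over Lgr5med it was 1 in NRG1 mice and 3 in PBS mice, and for Lgr5neg over Lgr5low 5 in NRG1 mice and 4 in PBS mice. Lgr5neg and Lgr5high cells differed in 6 members in NRG1 mice and 5 in PBS mice. For Lgr5med over Lgr5high in NRG1 mice, 2 had an unadjusted p under 0.05 and DESeq2 called 0. In the steps to Lgr5neg cells more than 50% of all genes were called, so a called member there is near the background.

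**Figure D2:**
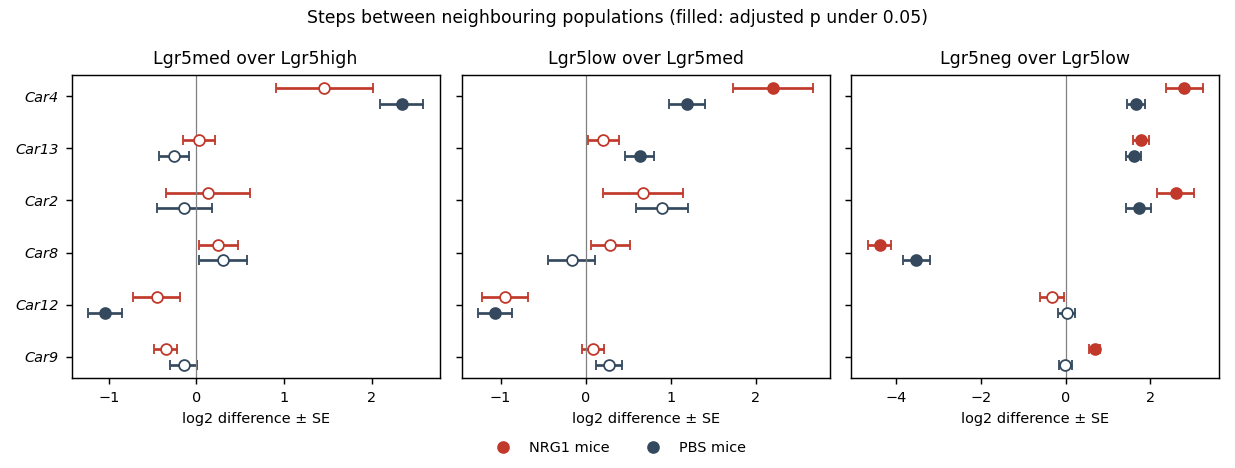
Log2 difference with its SE (x axis) of 6 genes in the 3 steps between neighbouring populations, the later over the earlier, for NRG1 mice (red, upper) and PBS mice (dark blue, lower); filled points have an adjusted p under 0.05. Car4 is above 0 in all 3 steps, Car12 is below 0 in the first 2, and Car8 is far below 0 only in the last.

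Among the cytosolic enzymes, Car13 rose at the last step. It had 12.3, 15.6 and 14.8 CPM in NRG1 and 16.3, 16.8 and 19.4 CPM in PBS Lgr5high libraries, and 13.1, 13.1 and 16.5 CPM in NRG1 and 15.7, 13.8 and 14.5 CPM in PBS Lgr5med libraries. In Lgr5low cells it had 18.7, 16.2 and 13.6 CPM in NRG1 and 28.9, 18.7 and 21.0 CPM in PBS libraries. In Lgr5neg cells it had 43.7, 48.9 and 67.2 CPM in NRG1 and 66.7, 54.5 and 76.8 CPM in PBS libraries. All Lgr5neg libraries lay above all others, where 61% of tested genes in NRG1 and 59.9% in PBS mice did not overlap between Lgr5neg and Lgr5low. The step of Lgr5neg over Lgr5low was 1.78 in NRG1 mice (SE 0.186, adjusted p = 4.24e-07) and 1.61 in PBS mice (SE 0.170, adjusted p = 1.65e-07). The Lgr5low over Lgr5med step in PBS mice was 0.64 (SE 0.171, adjusted p = 0.0265), and it was not called without the Lgr5low PBS library of replicate 1 (0.159) or without any Lgr5med PBS library (0.0621 without replicate 1, 0.108 without 2 and 0.0818 without 3). Car13 was not called under NRG1 in any population, although its NRG1 and PBS libraries of Lgr5high cells did not overlap (log2 change -0.28, SE 0.149, adjusted p = 0.292). In that population 27% of the tested genes had libraries that did not overlap.

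Car2, the widespread high-activity cytosolic enzyme, was low in the 3 Lgr5+ gates and varied between mice in Lgr5neg cells. Its Lgr5neg levels were 22.4, 11.9 and 5.97 CPM in NRG1 and 19.8, 12.1 and 8.09 CPM in PBS libraries. The 11-week-old replicate 3 was the lowest in both treatments and the 15-week-old replicate 1 the highest, and the spread within a treatment exceeded the treatment difference (log2 change 0.01, SE 0.488, adjusted p = 0.996). Over the other gates it ranged from 0.653 to 2.69 CPM in NRG1 and from 1.81 to 4.70 CPM in PBS libraries. Lgr5high cells had 0.653 to 1.76 CPM in NRG1 and 1.81 to 3.22 CPM in PBS libraries, without overlap (as for 27% of genes there). Lgr5med cells had 1.20 to 1.92 CPM in NRG1 and 1.87 to 2.49 CPM in PBS libraries. These overlapped, with each NRG1 library below the PBS library of the same number. Car2 was not called under NRG1 in either gate. Lgr5low cells had 2.63, 1.70 and 2.69 CPM in NRG1 and 4.70, 3.79 and 4.20 CPM in PBS libraries, which did not overlap (log2 change -0.84, SE 0.299, adjusted p = 0.244; 18.5% of genes did not overlap there). Lgr5neg over Lgr5low cells gave 2.60 in NRG1 mice (SE 0.448, adjusted p = 0.000141) and 1.73 in PBS mice (SE 0.293, adjusted p = 5.23e-05). Car2 is also abundant in red blood cells, and 8 erythroid genes summed to 0.160 to 1.69 CPM in NRG1 and 0.278 to 1.05 CPM in PBS libraries of all populations, of which Alas2 was counted in 24 libraries, Klf1 in 23, Hbb-bs in 11 and Hba-a1 in none. Their part in the Car2 values was not tested.

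Car12, a membrane-spanning enzyme, ran the other way. It had 50.7, 46.0 and 41.9 CPM in NRG1 and 60.7, 58.9 and 57.1 CPM in PBS Lgr5high libraries. In Lgr5med cells it had 33.6, 39.4 and 26.8 CPM in NRG1 and 37.0, 23.6 and 24.9 CPM in PBS libraries. In Lgr5low cells it had 14, 21.4 and 15.3 CPM in NRG1 and 16.7, 13.4 and 10.8 CPM in PBS libraries. Lgr5neg cells had 8.38, 9.90 and 20.8 CPM in NRG1 and 10.4, 15.8 and 13.3 CPM in PBS libraries. Levels were lower from gate to gate up to Lgr5low, and those of Lgr5low and Lgr5neg cells overlapped.

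In NRG1 mice the log2 difference of Car12 was -0.45 for Lgr5med over Lgr5high (SE 0.264, adjusted p = 0.463) and -0.95 for Lgr5low over Lgr5med (SE 0.272, adjusted p = 0.0651). The second of these was called with DESeq2 (0.0117), without a filter on low counts (5.26e-06), in the model of all 24 libraries (0.0293) and without the Lgr5low NRG1 library of replicate 2 (0.0471). In PBS mice it was lower in Lgr5med than in Lgr5high cells (-1.04, SE 0.191, adjusted p = 0.00173) and lower in Lgr5low than in Lgr5med cells (-1.07, SE 0.196, adjusted p = 0.00220). In the 15-week-old mice alone these had adjusted p-values of 0.0895 and 0.0570. Lgr5neg over Lgr5low was -0.33 in NRG1 mice (SE 0.280, adjusted p = 0.341), but -0.84 (adjusted p = 0.00336) without the Lgr5neg NRG1 library of replicate 3, which had the highest level of its group, and -0.89 (adjusted p = 0.00527) in 15-week-old mice. For NRG1 over PBS the log2 change of Car12 in Lgr5high cells was -0.33 (SE 0.115, adjusted p = 0.0959), with no overlap between treatments, as for 27% of the tested genes there.

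Car8, the relative without enzyme activity, was abundant in the 3 Lgr5+ gates and low in Lgr5neg cells. Its levels were 70.7, 69.3 and 67.0 CPM in NRG1 and 84.1, 73.4 and 66.1 CPM in PBS Lgr5high libraries, and 60.4, 91.3 and 90.5 CPM in NRG1 and 69.6, 106 and 99.6 CPM in PBS Lgr5med libraries. In Lgr5low cells they were 65.8, 105 and 121 CPM in NRG1 and 46.0, 107 and 93.3 CPM in PBS libraries, and in Lgr5neg cells 2.79, 4.57 and 5.89 CPM in NRG1 and 4.60, 7.68 and 7.85 CPM in PBS libraries. No Lgr5neg library reached any library of another gate. Between Lgr5neg and Lgr5low cells 61% of tested genes in NRG1 and 59.9% in PBS mice did not overlap. Lgr5neg over Lgr5low was -4.39 in NRG1 mice (SE 0.275, adjusted p = 5.70e-09) and -3.53 in PBS mice (SE 0.323, adjusted p = 9.08e-07). Replicate 1 was the lowest of its group in Lgr5med and Lgr5low cells of both treatments. The gene most like Car8 over the 24 libraries was Cd24a (Pearson r = 0.982), which encodes the surface protein used for the sort, so this likeness includes the gate itself.

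**Figure D3:**
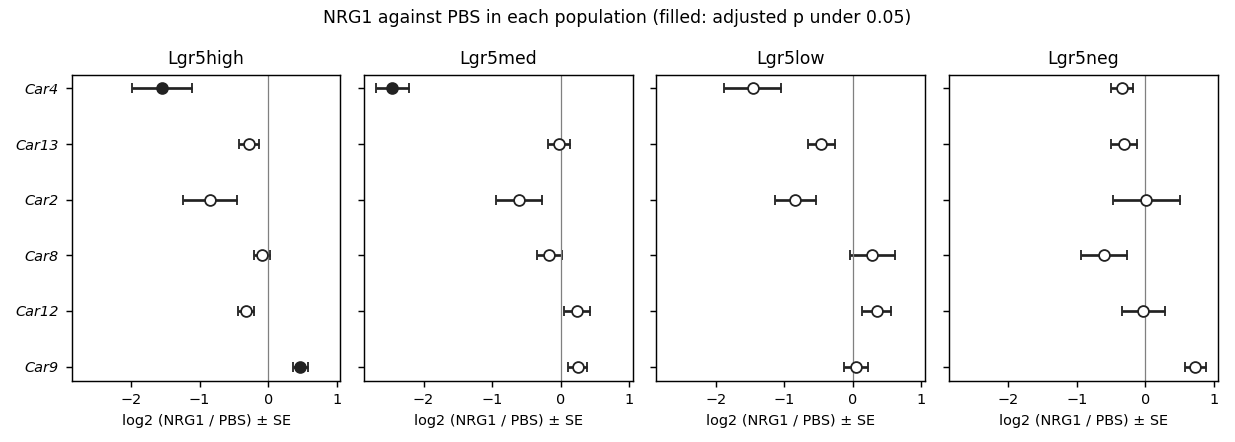
Log2 change of NRG1 over PBS with its SE (x axis) for 6 genes in each of the 4 populations; filled points have an adjusted p under 0.05. Filled points are Car4 and Car9 in Lgr5high and Car4 in Lgr5med cells, and Car9 in Lgr5neg cells has a log2 change of 0.73 that is not called.

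Car9, a membrane-spanning enzyme, had levels of the same order in all gates and rose under NRG1 in Lgr5high cells. There it had 56.0, 52.8 and 58.3 CPM in NRG1 libraries, against 41.9, 37.5 and 43.0 CPM in PBS libraries. In Lgr5neg cells it had 65.6, 73.9 and 69.5 CPM in NRG1 libraries, against 44.0, 44.0 and 37.8 CPM in PBS libraries. The treatments did not overlap in either population, as for 27% of the tested genes in Lgr5high and 15.9% in Lgr5neg cells. In Lgr5neg cells goblet cell markers summed to 1214 to 3741 CPM in NRG1 and 4764 to 6649 CPM in PBS libraries (median log2 change -1.14, none of 11 called). Lgr5med cells had 40.5, 50.1 and 38.5 CPM in NRG1 and 40.6, 35.8 and 33.9 CPM in PBS libraries, and Lgr5low cells 50.1, 45.3 and 39.3 CPM in NRG1 and 56.2, 38.8 and 38.8 CPM in PBS libraries. In those 2 populations the treatments overlapped. In NRG1 mice Car9 was higher in Lgr5neg than in Lgr5low cells (log2 difference 0.69, SE 0.133, adjusted p = 0.000275) and than in Lgr5high cells (0.43, SE 0.132, adjusted p = 0.00846, and 0.0583 without a filter on low counts). Between gates of PBS mice it was not called in any comparison.

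The log2 change of Car9 was 0.47 in Lgr5high cells (SE 0.114, adjusted p = 0.0191). The call ended in the model of all 24 libraries (0.0770) and in 15-week-old mice (0.0635), and also without any of the NRG1 libraries of replicate 1 (0.0631), 2 (0.0513) or 3 (0.0894) or the PBS library of replicate 2 (0.0851), although the log2 change stayed between 0.41 and 0.51 over all 13 alternatives. In Lgr5neg cells it was 0.73 (SE 0.149, adjusted p = 0.0656). Blocking on the replicate number, the adjusted p was 0.00015 at a log2 change of 0.73, and 839 in place of 39 genes were called. DESeq2 gave an adjusted p of 0.00440, and the model of all 24 libraries 0.00764, over a range of 0.00015 to 0.593 in the alternatives. Without the Lgr5neg NRG1 library of replicate 1 the adjusted p was 0.0367. The changes of Lgr5med (0.25, SE 0.135) and Lgr5low cells (0.04, SE 0.171) were not called, and the Lgr5low minus Lgr5neg difference of -0.69 (SE 0.203, unadjusted p = 0.00218, adjusted p = 0.526) was not called either. An annotated antisense gene, Gm12454, shares 214 bp of exon with Car9, and the strand setting of the counting is not given in the sources used here, so reads of the pair cannot be told apart over that stretch.

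Of 19 genes of the hypoxia list tested in Lgr5high cells, where Car9 rose, none was called higher and 4 were called lower. These were Hk2 by 0.84 (adjusted p = 0.00120), Vegfa by 0.71 (adjusted p = 0.0181), Ldha by 0.60 (adjusted p = 0.0156) and Pdk1 by 0.50 (adjusted p = 0.0256). These encode hexokinase 2, a blood vessel growth factor, lactate dehydrogenase A and a kinase that holds back pyruvate dehydrogenase. The median of the list was -0.22, against 0.01 over all genes. Its log2 changes ran from -0.84 (Hk2) to 0.92 (Ankrd37), and 2 of the 19 lay above Car9. In Lgr5med cells Ldha, Hk2 and Pgk1 were called lower and none of 18 higher, and the highest change was 1.01 (Ddit4). In Lgr5neg cells Hk2 fell by 2.13 (adjusted p = 0.0275) as the only one of 20 called. There the median of the list was 0.0017, and 3 of the 20 lay above Car9, up to 0.91 (Bnip3).

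**Figure D4:**
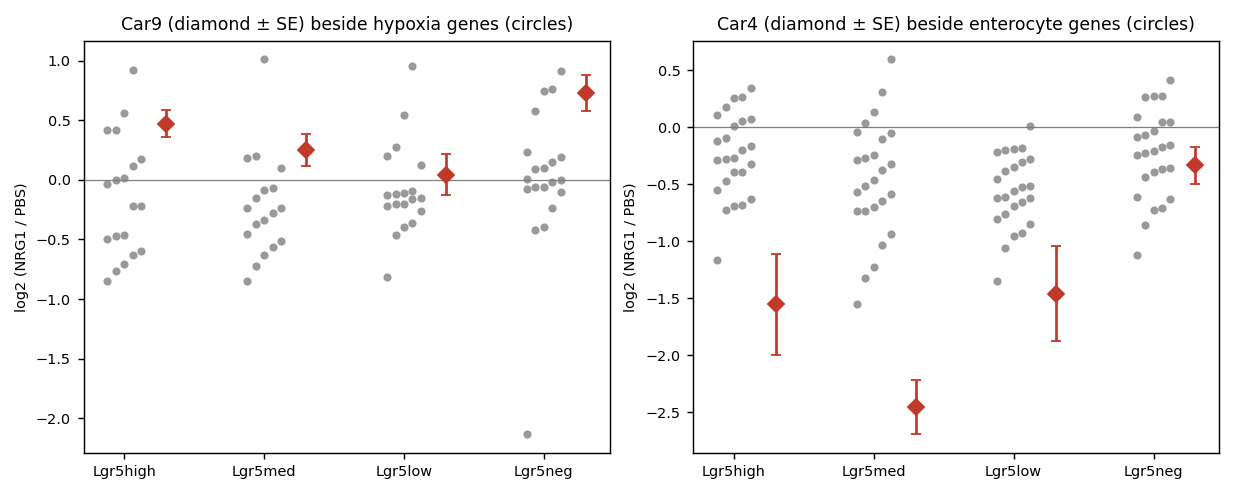
Log2 change of NRG1 over PBS (y axis) in the 4 populations (x axis) for Car9 beside the hypoxia genes (left) and Car4 beside the enterocyte genes (right); diamonds are the named gene with its SE and grey circles single list genes. Car9 lies above 17 of 19 hypoxia genes in Lgr5high and 17 of 20 in Lgr5neg cells, and Car4 lies below all 25 enterocyte genes in the first 3 populations.

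Other genes that handle bicarbonate and protons were called under NRG1 at shares near those of all genes (7.33% in Lgr5high and 9.55% in Lgr5med cells). Slc16a1, a carrier of lactate and protons, fell by 0.46 in Lgr5high cells (adjusted p = 0.0221) as the only one of 15 called, and Slc9a3r1, the scaffold of the sodium-proton exchanger, fell by 0.46 in Lgr5med cells (adjusted p = 0.0319) as the only one of 16. None of 17 was called in Lgr5low or in Lgr5neg cells. Between gates of PBS mice 12 of 17 were higher and 3 lower in Lgr5neg than in Lgr5high cells, where 67.4% of all genes were called. Slc9a3, the brush border sodium-proton exchanger, was higher by 6.57 and Slc26a6, an anion exchanger, by 5.93, beside 5.19 for Car4 (SE 0.260). Slc12a2, the chloride loader of secreting cells, was lower (log2 difference -6.19), beside -2.08 for Car12 (SE 0.203). Slc12a2 is also on the list of stem cell markers summed above.

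Levels of different genes were compared per kilobase of annotated exon, as CPM per kb. By that measure Car4 made up 42.9% ± 2.80 of the sum of the 9 genes in NRG1 and 51.0% ± 5.03 in PBS Lgr5neg libraries (SD, n = 3 each), with Car9 at 27.9% ± 1.78 in NRG1 and 15.9% ± 0.950 in PBS libraries. In Lgr5high cells Car9 made up 43.5% ± 1.91 in NRG1 and 32.1% ± 2.27 in PBS libraries, and Car8 32.2% ± 0.914 in NRG1 and 35.0% ± 3.16 in PBS libraries. Car4 held 3.00% ± 1.23 in NRG1 and 14.3% ± 2.07 in PBS Lgr5med libraries. The sum itself was 52.5 ± 6.27 in NRG1 and 59.5 ± 4.02 CPM per kb in PBS Lgr5med cells, and 108 ± 1.59 in NRG1 and 114 ± 5.19 CPM per kb in PBS Lgr5neg cells. Lgr5neg cells thus held the highest sum in both treatments.

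**Figure D5:**
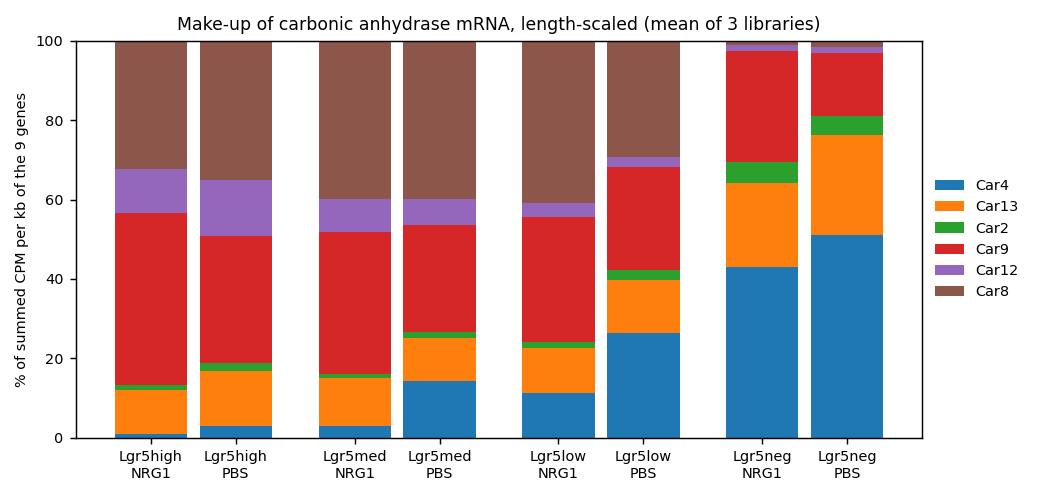
Share of each gene (y axis, %) in the summed CPM per kb of the 9 carbonic anhydrase genes, as the mean of 3 libraries per group, with NRG1 left of PBS in each population. Car8 and Car9 together make up most of the sum in Lgr5high, Lgr5med and Lgr5low cells, and Car4 and Car13 take a larger share in Lgr5neg cells.

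The remaining 3 members were at or near the floor. Car5b, the mitochondrial enzyme, had 187 counts over 24 libraries, 1 to 27 each, and had group means of 0.128 to 0.602 CPM. Its Lgr5neg over Lgr5high difference in PBS mice was -2.10 (SE 0.928, adjusted p = 0.0522), and -2.24 (adjusted p = 0.0423) when blocked on the mouse. It was also called in the model of all 24 libraries (0.0243) and without the Lgr5neg PBS library of replicate 2 (0.0465). Car7, a cytosolic enzyme, had 37 counts in all, with 0 in 14 libraries and at most 8 in any. Car1, known in mouse as a colon enzyme, had 0 counts in all 24 libraries, which allows up to 0.113 to 0.239 CPM per library at 3 counts.

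Of the other family symbols, only Car14 and Ptprg passed the filter over all libraries. Car14 had 124 counts and shares exon sequence with Aph1a on the opposite strand, so its counts are uncertain. Ptprg, a receptor phosphatase whose outer part is carbonic anhydrase-like, was not called under NRG1 in any population, with log2 changes of -0.07 to 0.21. Car15 had 122 counts and shares 1253 bp of exon with Gm20518. Car3, Car5a, Car6, Car10, Car11 and Ptprz1 had 3, 9, 6, 9, 17 and 4 counts in all.

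By Pearson's r over the 24 libraries on log2 CPM, among 8809 genes, the nearest to Car4 were Coro2a (0.983), St3gal4 (0.980) and Apol10a (0.975). Nearest to Car13 were Mlf2 (0.978), Ldb3 (0.973) and Slc5a1 (0.973), and nearest to Car2 were Agrn (0.952), Lactb (0.950) and Hsd17b13 (0.946). Car12 was nearest to Sdc4 (0.941), Zfp503 and BC021891 (0.931 each), and Car8 to Cd24a, Fgfr2 (0.977) and Csrp1 (0.977). Car9 had no close neighbour, with Cox8a at 0.777, Pde4d at 0.774 and Scpep1 at 0.758, and neither had Car5b (Rffl 0.787, Rbm4b 0.753 and Fnbp4 0.747). These values describe libraries that share mice and gates. Among the members, Car8 and Car13 were opposed (r = -0.92) and Car2 and Car13 ran together (0.86).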

How the data were processed

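Counts of 24 libraries were deposited by the authors as whole numbers of reads per gene symbol, not normalised. The submitters' processing notes name STAR, featureCounts and the build GRCm38, and versions and the strand setting are not given in the sources used here. Per the labels, 15 ng of RNA went into each library, and single-end sequencing gave 76 nt. Exon lengths and coordinates come from GENCODE vM21 on GRCm38, and 39469 of 43280 symbols matched it by name. Tests used edgeR 4.0.16 in R 4.3.3 (quasi-likelihood, robust, TMM, filter at a minimum count of 10 and a minimum total of 15), within population for NRG1 against PBS, within treatment for populations, and over 24 libraries for the difference of responses. Calls were made at an adjusted p under 0.05 (Benjamini-Hochberg). SE is the log2 change divided by the square root of F. Log2 CPM used a prior count of 2. Floors of 3 counts reflect counting error alone. No molecular identifiers were used, so reads copied from the same molecule are not allowed for. Members and lists were chosen with earlier results of these data known. Genes were named by rule: all members, up to 4 called genes of each list per comparison, and the 3 most similar genes per member. Alternatives were DESeq2 1.42.0, other size factors, no filter, no mitochondrial ribosomal RNA, 1 model of 24 libraries, a replicate block, each library left out (each replicate number for the difference of responses), and the 15-week-old mice alone, the last chosen after seeing the data.

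Labels do not state litters or batches beyond age. The tests as reported held no term for replicate number or mouse, which entered only as a block in the alternatives. Between NRG1 and PBS libraries of a population, deviations from group means correlated at 0.109 to 0.395 in all pairs with the same replicate number. Between other pairs they correlated from -0.32 to 0.168. The reported p-values do not take this likeness into account. The replicate number goes with age and, within a treatment, with the mouse. No 2 replicates of the same group agreed within sampling noise (24 pairs compared, chi-square per degree of freedom 12.3 or more).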

Additional observations from a re-analysis of the deposited data

How the results depend on the processing

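Of 188 counts of members called under an alternative, 159 stayed within 1.5 times the reported count and 29 did not. The causes were not tested. For NRG1 against PBS, Lgr5high (2 as reported) gave 0 in the model of all 24 libraries and 0 in 15-week-old mice, and 0 to 2 with a library left out. Lgr5low (0) gave 1 with the replicate block and 0 to 1 with a library left out. Lgr5neg (0) gave 1 with DESeq2, without a filter, in the 24-library model and with the replicate block, and 0 to 1 with a library left out. Between Lgr5low and Lgr5med in NRG1 mice (1) it was 2 with DESeq2, without a filter and in the 24-library model, 0 in 15-week-old mice and 0 to 2 with a library left out. In 15-week-old PBS mice, with 2 mice and so fewer samples, 1 member was called between Lgr5low and Lgr5med (3 as reported) and 1 between Lgr5med and Lgr5high (2). Without a filter, Car4 was called in each of the 4 tests of a different response and between Lgr5med and Lgr5high in NRG1 mice, 1 each in place of 0. The block changed no other call of a member under NRG1 than those of Car4 in Lgr5low and Car9 in Lgr5neg cells.

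Of 1212 log2 changes of single members under an alternative, 1113 kept their direction and their side of the threshold, 25 lost a call, 21 gained one and 53, in 22 of 102 results, changed sign. None of the 22 was called as reported or with its sign changed. Lgr5neg over Lgr5low in PBS mice gave -0.038 without a filter and -0.13 in 15-week-old mice for Car12, and 0.054 with DESeq2, 0.054 with RLE size factors, 0.0043 without mitochondrial ribosomal RNA and 0.0064 with the mouse block for Car9. Car13 of Lgr5med over Lgr5high in NRG1 mice gave -0.017 with DESeq2, -0.017 with RLE, -0.00023 in the 24-library model and -0.089 in 15-week-old mice. Car2 of Lgr5neg under NRG1 gave -0.0012 in the 24-library model and -0.069 with the replicate block. Car5b in 15-week-old mice gave 0.28 for Lgr5med over Lgr5high in PBS mice and 0.18 under NRG1 in Lgr5high cells.

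With a library left out, the sign changed within these ranges. Under NRG1, Car12 in Lgr5neg ran from -0.52 to 0.20, Car13 in Lgr5med from -0.14 to 0.036, Car2 in Lgr5neg from -0.58 to 0.39, and Car5b in Lgr5high from -0.32 to 0.071. Car8 ran from -0.17 to 0.00023 in Lgr5high, -0.0054 to 0.52 in Lgr5low and -0.33 to 0.0027 in Lgr5med, and Car9 from -0.056 to 0.25 in Lgr5low. Between gates in PBS mice, Lgr5neg over Lgr5low ran from -0.14 to 0.17 for Car12 and -0.11 to 0.16 for Car9, and Lgr5low over Lgr5med from -1.32 to 0.70 for Car5b and -0.41 to 0.12 for Car8. Lgr5med over Lgr5high ran from -0.32 to 0.092 for Car2 and -1.84 to 0.17 for Car5b. In NRG1 mice it ran from -0.10 to 0.11 for Car13 and -0.21 to 0.36 for Car2, and Lgr5low over Lgr5med from -0.012 to 0.20 for Car9. For differences of response to that of Lgr5neg, all libraries of 1 replicate number were left out in both treatments, and the values ran, for Car12, from -0.64 to 0.23 in Lgr5high, -0.33 to 0.79 in Lgr5med and -0.16 to 0.78 in Lgr5low, for Car13 from -0.036 to 0.16 in Lgr5high, and for Car5b from -1.10 to 0.44 in Lgr5low.

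Counts of all genes moved more widely. Blocking on the replicate number changed those called under NRG1 from 976 to 1229 in Lgr5high, 1279 to 2333 in Lgr5med, 59 to 573 in Lgr5low and 39 to 839 in Lgr5neg cells. Over the alternatives they lay between 480 and 1428, 422 and 2333, 1 and 573, and 0 and 839 in that order. Lgr5med over Lgr5high ran from 68 to 1059 in NRG1 mice and from 99 to 1755 in PBS mice (1301 as reported), and Lgr5low over Lgr5med from 91 to 1268 in NRG1 mice and from 307 to 1523 in PBS mice (1078 as reported). Tests of a different response ran from 0 to 150 (8) for Lgr5high, 134 (7) for Lgr5med, 94 (3) for Lgr5low and 227 (4) for any difference. Depth limits Car1, Car5b and Car7, and Car4 in Lgr5high cells, where counts per library are low.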
